A study of Mus musculus with 14 samples.

Results

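The genes described here are 40 named genes of BMP, TGF-beta and Nodal signalling, taken from a list that names ligands, receptors, secreted modulators, intracellular feedback inhibitors and the Id target genes. The rule that lists them uses no measured value, though the list was chosen with earlier results of these data known. Of the 40, 35 had a row at day 5 of differentiation (D5) among 15108 genes, 32 had a row at day 10 (D10) among 15744 genes, and 36 of 16060 genes were measured on either day. Gdf7, Inhba, Grem1 and Smad9 were not analysed here on either day. Inhbb was not analysed here at D5, and Nodal, Lefty1, Lefty2 and Cer1 were not analysed here at D10.

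The cells were mouse embryonic stem cells of the A2Lox.cre strain, as the single line GLI1-FTA, which carries a doxycycline-inducible GLI1 transgene, cultured towards neural cells. GLI1 is the zinc-finger activator of Hedgehog target genes. GLI1-induced cells received 500 ng/ml doxycycline for 48 h, between D3 and D5, and controls were untreated, so the drug and GLI1 cannot be told apart. The 4 groups of polyadenylated RNA libraries were compared in pairs, with 4 samples of GLI1-induced cells and 4 of controls at D5, and with 3 samples of each at D10, 5 days after the drug was washed out. Only the authors' comparisons of induced with control samples were used, with no value per library, so sample depth is unknown and no count of libraries in a direction is given. The labels do not say whether replicates were separate cultures, and the p-values measure only the spread between these samples.

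BMPs, Nodal, activins and TGF-betas are related secreted dimers that bind paired serine/threonine kinase receptors of type I and type II. BMP receptors phosphorylate one set of SMAD proteins and Nodal, activin and TGF-beta receptors another, and both sets enter the nucleus with SMAD4. In the embryo, neural tissue forms where BMP and Nodal signals are held low by secreted inhibitors such as Noggin, Chordin, Cerberus and the Lefty proteins. Later, BMPs from the roof plate pattern the dorsal neural tube, opposite to Sonic hedgehog from the floor plate.

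Gli1 (Entrez 14632) checked the labels. At D5 the induced cells exceeded controls 27.8-fold in the authors' deposited table (log2FC, the log2 fold change, 4.79; adjusted p = 1.12e-81), a value in which transgene and endogenous gene are not distinguished. At D10 its log2FC in the authors' deposited table was 0.57, or 1.48-fold, with an unadjusted p of 0.00161 and an adjusted p of 0.78. Markers of the labelled cells were expressed. The summed level of the 6 neural progenitor markers Sox1, Sox2, Nes, Pax6, Sox3 and Fabp7 at D5, computed from the authors' deposited table, was 1180 CPM (reads of a gene scaled to the library's total) in induced cells and 1160 CPM in controls. At D10, the stage labelled immature neuron, the 6 neuron markers summed to 1650 CPM in induced cells and 1620 CPM in controls, from the authors' deposited table. Markers of other cells were expressed too: at D10 the 9 endoderm markers summed, from the authors' deposited table, to 3390 CPM in induced cells and 3650 CPM in controls. Most of this was Lama1, with 1980 CPM in induced cells and 2190 CPM in controls. Krt18 (523 and 529 CPM) and Krt8 (467 and 486 CPM) came next. In such bulk samples, fewer cells of a type and less RNA per cell cannot be told apart. Group levels here are implied by the deposited fold change and average level, and have no error of their own.

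While GLI1 was induced, at D5, 3 of the 35 measured pathway genes rose, 1 fell and 31 did not pass the authors' test (adjusted p under 0.05 over all genes). The ligands Bmp7 and Bmp5 and the secreted glycoprotein gene Fstl1 rose, and the Nodal inhibitor gene Lefty2 fell. The members called made up 11.4% of those measured, and 4.44% of all 15108 genes were called in the authors' deposited table, 2.34% higher and 2.10% lower. Before adjustment, 13 members had a p under 0.05, 5 with a log2FC above 0 and 8 below. Of all genes, 10.7% did in the authors' deposited table, with 4.83% above 0 and 5.83% below. The median log2FC of the 35 was -0.08 in the authors' deposited table, with 11 above 0 and 24 below, and that of all genes was 0.0015. At D10 none of 32 members passed.

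**Figure D1:**
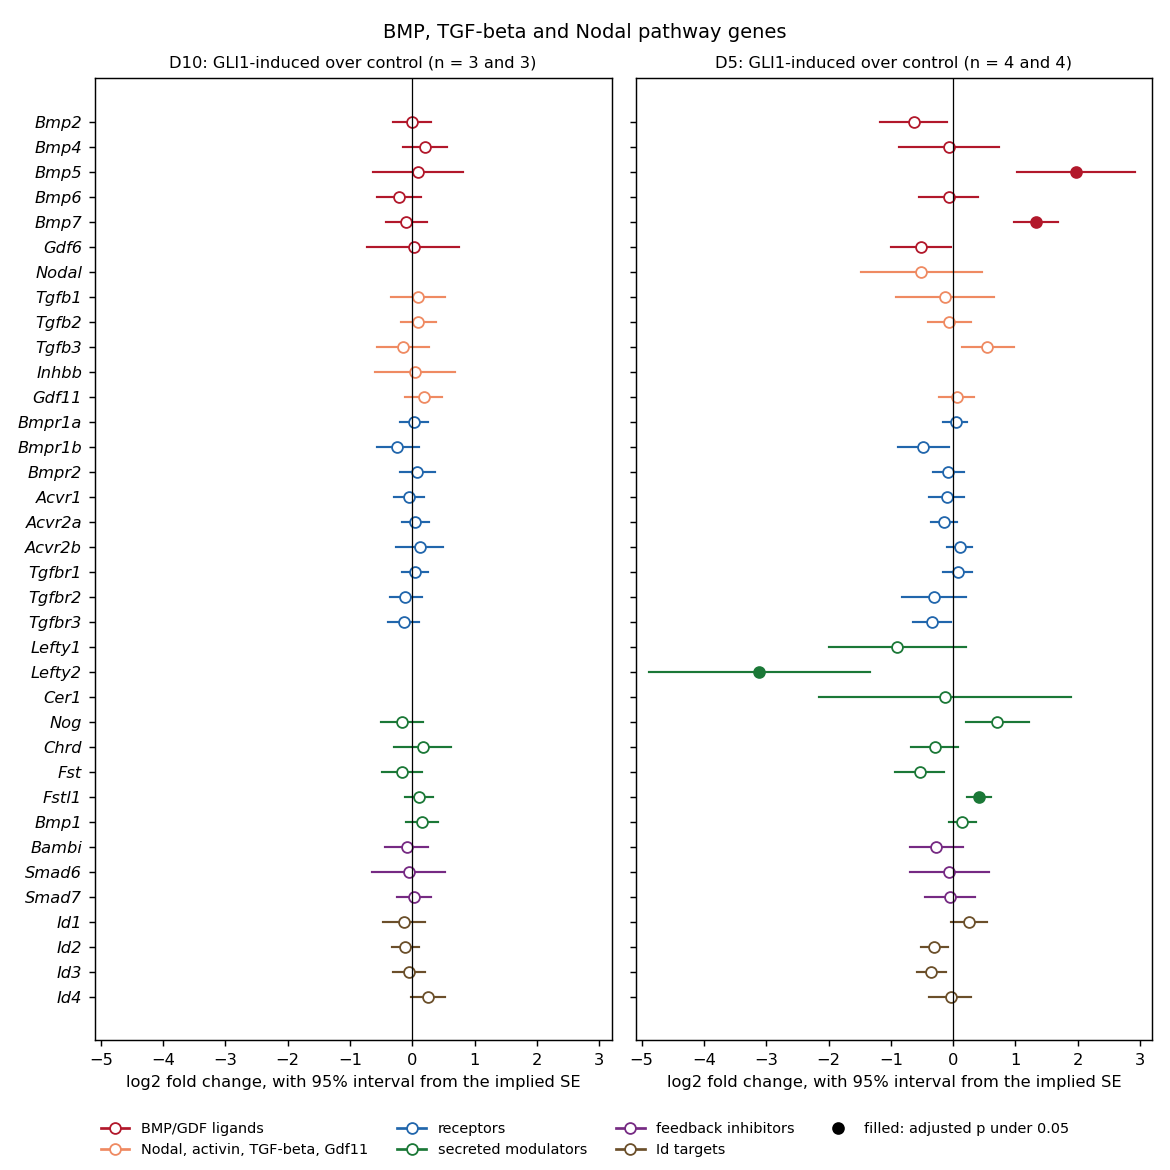
The log2 fold change of GLI1-induced over control cells is plotted for each measured pathway gene at D10 (left) and D5 (right), from the authors' deposited tables. Bars are 95% intervals from the SE implied by the deposited p, and filled points have an adjusted p under 0.05: Bmp5, Bmp7 and Fstl1 lie right of 0 and Lefty2 left of it at D5, and no point is filled at D10.

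Among the BMP-type ligands, 2 of 6 measured genes rose at D5 and none fell. Bmp7 encodes a BMP that many embryonic epithelia secrete. Its level implied by the authors' deposited table was 15.3 CPM in induced cells and 6.08 CPM in controls, a 2.51-fold rise. The log2FC in the authors' deposited table was 1.33, with an implied standard error (SE) of 0.18, a 95% interval of 0.98 to 1.68 and an adjusted p of 1.34e-11. Bmp7 had the smallest p of all 35 members. Bmp5, whose protein is a close relative of BMP7, rose too, with 0.913 CPM in induced cells and 0.232 CPM in controls implied by the authors' deposited table. That is 3.93-fold, with a log2FC of 1.97, an implied SE of 0.48 and an adjusted p of 0.00185 in the authors' deposited table. Holm's adjustment of the authors' p-values left Bmp5 short of the threshold (adjusted p of 0.578, against a lowest value of 0.0179 over its alternatives).

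Markers of other cell types moved at D5 as well. All 5 measured floor plate markers (Shh, Foxa2, Spon1, Ntn1 and Slit1) rose, and their summed level from the authors' deposited table was 510 CPM in induced cells and 261 CPM in controls. None of the 5 measured roof plate markers passed, with sums of 3.94 CPM in induced cells and 4.07 CPM in controls from the authors' deposited table. Of 4 mesoderm markers, T and Foxf1 rose and Pdgfra fell. Their sums of 66.0 CPM in induced cells and 107 CPM in controls were mostly Pdgfra, which alone had 59.3 CPM in induced cells and 104 CPM in controls from the authors' deposited table. Of 6 neuron markers, Tubb3 and Stmn2 fell and none rose, with sums of 612 CPM in induced cells and 715 CPM in controls from the authors' deposited table. Lmx1a, Tbx6, Mesp1 and Meox1 were not analysed here at D5, and no measured marker of these lists was at 0. The part of these cells in the rise of Bmp7 and Bmp5 was not tested.

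The other BMP-type ligands did not pass. Bmp2, a ligand of heart, limb and many other embryonic tissues, had 3.50 CPM in induced cells and 5.42 CPM in controls from the authors' deposited table (log2FC -0.63, unadjusted p = 0.0202, adjusted p = 0.259). Gdf6, a BMP-type factor of the dorsal neural tube, retina and skeleton, had 3.78 CPM in induced cells and 5.44 CPM in controls from the authors' deposited table (log2FC -0.52, unadjusted p = 0.0322, adjusted p = 0.356). Both values lay below 0, opposite to Bmp7 and Bmp5. Bmp4, the ligand used to turn stem cells away from a neural fate, had a log2FC of -0.07 in the authors' deposited table with a wide 95% interval of -0.87 to 0.74, at 1.2 CPM in induced cells and 1.26 CPM in controls. Bmp6, a relative of Bmp5 and Bmp7, stood at 7.88 CPM in induced cells and 8.28 CPM in controls from the authors' deposited table, with a log2FC of -0.07.

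Sequence was examined for the ligands that rose, to show what reads could be shared and what lies before the start of Bmp5. Of all 50-base windows of the longest Bmp7 transcript, 0.0276% also occur in another gene, and for Bmp5 this share is 0.186%, so reads of this length are nearly all specific, and Bmp7 and Bmp5 share none of them. An opposite-strand transcript, Gm26903, overlaps exons of Bmp5, as others do exons of Fst, Tgfb3, Id4, Bmp6, Acvr2a, Chrd, Bmp4, Bmpr1a, Tgfb2 and Ccn2. The sources used here do not say whether counting used strand, so values of these genes are uncertain. RefSeq promoters (assembly GRCm38.p6, 250 bases before to 50 after each start) were matched for 27 of the 40 members, with 30 promoters. Of the members that changed, Bmp5 and Fstl1 were matched. The GLI-type motif GACCACCCA, sought on both strands, was in 0 of the 30 and in 0.253% of all 32851 promoters. Its core CCACCCA, which lies within it, was in 3 of the 30 (Bmp5, Grem1 and Tgfb1), or 10% against 9.3% of all promoters. In Bmp5 the core lies on the minus strand, with its first plus-strand base 215 bases before the start, shown in capitals in the 250 bases before the start (chr9:75775115-75775364, plus strand). The Fstl1 promoter (chr16:37776805-37777054, plus strand) held neither motif. The SMAD-type motif GTCTAGAC was in 1 of the 30 (Smad6), or 3.33% against 0.213% of all promoters. A GC-rich SMAD-type motif, GGCGCC, was in 8 of the 30, or 26.7% against 11.9% of all promoters and 21.1% of those of genes measured at D5, and the E-box CACCTG was in 5, or 16.7% against 20.2%. These matches describe letters only.
Bmp5 promoter: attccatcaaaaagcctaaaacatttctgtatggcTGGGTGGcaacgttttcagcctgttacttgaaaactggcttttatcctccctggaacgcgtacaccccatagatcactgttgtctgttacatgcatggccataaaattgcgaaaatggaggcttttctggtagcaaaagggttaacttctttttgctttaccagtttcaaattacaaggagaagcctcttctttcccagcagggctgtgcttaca

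No ligand of the Nodal, activin and TGF-beta branch passed at D5, among 5 measured. Tgfb3, a TGF-beta isoform, had 5.13 CPM in induced cells and 3.50 CPM in controls from the authors' deposited table (log2FC 0.55, unadjusted p = 0.0091, adjusted p = 0.148). Nodal, the ligand of early mesendoderm and left-right patterning, had 0.492 CPM in induced cells and 0.700 CPM in controls from the authors' deposited table. Its log2FC of -0.51 in the authors' deposited table had a 95% interval of -1.48 to 0.47, which spans changes in both directions. Gdf11, an activin-like ligand of the spinal cord and body axis, stood at 27.7 CPM in induced cells and 26.6 CPM in controls from the authors' deposited table. Tgfb1 and Tgfb2 had log2FC values of -0.13 and -0.06 in the authors' deposited table.

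All 9 receptor genes were measured and none passed. Their log2FC values ran from -0.48 to 0.11 in the authors' deposited table. Of the type I BMP receptor genes, Bmpr1a had 206 CPM in induced cells and 200 CPM in controls from the authors' deposited table, and Bmpr1b had 5.88 CPM in induced cells and 8.17 CPM in controls (log2FC -0.48, unadjusted p = 0.0223, adjusted p = 0.278). The log2FC of Bmpr1a was 0.04 in the authors' deposited table, with a 95% interval of -0.16 to 0.23. Tgfbr3, the co-receptor betaglycan, had 27.9 CPM in induced cells and 35.2 CPM in controls from the authors' deposited table (log2FC -0.34, unadjusted p = 0.0307, adjusted p = 0.345). The remaining type I receptor genes Acvr1 and Tgfbr1 had log2FC values of -0.10 and 0.07 in the authors' deposited table. Those of the type II receptor genes Bmpr2, Acvr2a, Acvr2b and Tgfbr2 were -0.08, -0.15, 0.11 and -0.31 in the authors' deposited table.

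Among the secreted modulators, 1 of 8 measured genes rose at D5 and 1 fell. Fstl1 encodes a follistatin-related glycoprotein reported to bind BMPs. It had 173 CPM in induced cells and 130 CPM in controls, implied by the authors' deposited table, a 1.33-fold rise (log2FC 0.41, implied SE 0.095, adjusted p = 0.000711). Holm's adjustment of the authors' p-values gave it 0.188, which did not pass. Lefty2, a secreted inhibitor of Nodal that Nodal signalling itself induces, fell, with 0.0494 CPM in induced cells and 0.427 CPM in controls from the authors' deposited table. The log2FC of -3.11 is the lowest of all 15108 genes in the authors' deposited table, with an implied SE of 0.91, a 95% interval of -4.89 to -1.33 and an adjusted p of 0.0179. Its average log2 CPM of -2.07 in the authors' deposited table is close to the table's minimum of -2.35. It did not pass with Holm's adjustment, which gave 1, or when z, the normal score of p, was rescaled so that its median size over genes of like level is that of a standard normal, which gave 0.0808. Without genes of an average log2 CPM under 1, the members that passed at D5 were 2, Bmp7 and Fstl1.

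**Figure D2:**
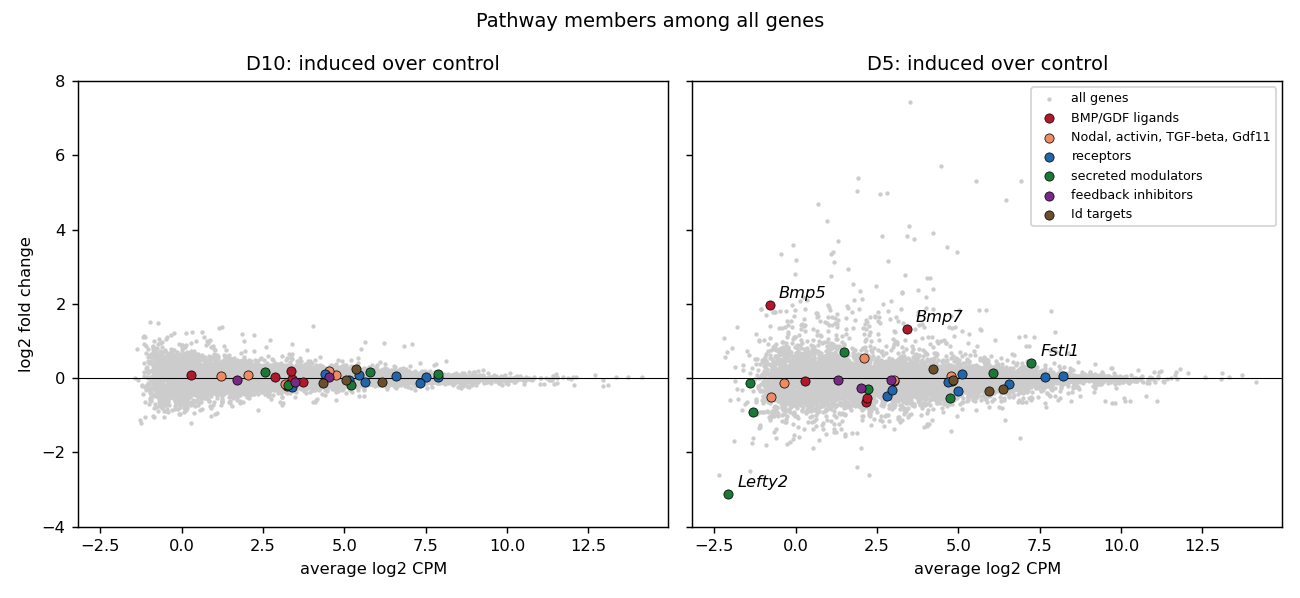
Each dot is a gene, with its average log2 CPM on the x axis and its log2FC of GLI1-induced over control cells on the y axis, at D10 (left) and D5 (right), from the authors' deposited tables, and pathway genes are coloured by role. Lefty2 and Bmp5 lie at the low-level end of the D5 panel, Bmp7 in the middle and Fstl1 towards the high end, and at D10 the pathway genes stay between -0.24 and 0.25.

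Lefty1, which encodes the other Lefty inhibitor of Nodal, had 0.283 CPM in induced cells and 0.528 CPM in controls from the authors' deposited table (log2FC -0.90, unadjusted p = 0.108, adjusted p = 0.705). Cer1, which encodes Cerberus, a secreted inhibitor of Nodal and BMPs, had a log2FC of -0.13 in the authors' deposited table with an implied SE of 1.0. The 2 Lefty genes are near copies, and 26.6% of the 1055 coding 50-base windows of each occur in the other. Reads from those windows cannot be assigned to one gene, so the split between Lefty1 and Lefty2 is uncertain.

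Markers of pluripotent cells, which use the Nodal pathway, moved beside Lefty2. Tdgf1 is both in this marker list and among the other pathway genes given below. Of the 8 markers, 2 fell (Dppa5a and Dnmt3b), none rose and 7 had a log2FC below 0. Their summed level from the authors' deposited table was 115 CPM in induced cells and 159 CPM in controls, of which Dnmt3b alone had 89.5 CPM in induced cells and 121 CPM in controls. Of 9 endoderm markers, 2 fell (Gata4 and Gata6) and 1 rose (Foxa2, which is also in the floor plate list). Their sums were 1330 CPM in induced cells and 1920 CPM in controls from the authors' deposited table, mostly Lama1, which did not pass and alone had 976 CPM in induced cells and 1490 CPM in controls. In the authors' deposited table Afp and Ttr, with log2FC values of 0.86 and 0.54, did not pass either, so the endoderm values had no common sign. Their part in the fall of Lefty2 was not tested.

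Other inhibitors and processing enzymes did not pass at D5. Nog, encoding the BMP antagonist Noggin, had 3.50 CPM in induced cells and 2.13 CPM in controls from the authors' deposited table (log2FC 0.71, unadjusted p = 0.00614, adjusted p = 0.111). Fst, encoding the activin-binding protein follistatin, had 21.8 CPM in induced cells and 31.7 CPM in controls from the authors' deposited table (log2FC -0.54, unadjusted p = 0.00641, adjusted p = 0.114). The values of these antagonists had opposite signs, and both missed the threshold. Chrd, encoding the BMP antagonist Chordin, had a log2FC of -0.29 in the authors' deposited table. Bmp1, whose product is not a ligand but a metalloprotease that cleaves Chordin, had a log2FC of 0.15 in the authors' deposited table.

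The feedback inhibitors and Id targets did not pass either. Bambi, a receptor-like inhibitor without a kinase domain, and the inhibitory SMAD genes Smad6 and Smad7 had log2FC values of -0.27, -0.06 and -0.05 in the authors' deposited table. The 4 Id genes encode helix-loop-helix proteins that hold back neuronal differentiation and are textbook targets of BMP signalling. Id3 had 53.5 CPM in induced cells and 68.1 CPM in controls from the authors' deposited table (log2FC -0.35, unadjusted p = 0.00378, adjusted p = 0.0766). Id2 had 74.1 CPM in induced cells and 91.4 CPM in controls from the authors' deposited table (log2FC -0.30, unadjusted p = 0.00598, adjusted p = 0.109). Rescaling z in that way brought both past the threshold, with adjusted p-values of 0.0355 for Id3 and 0.00995 for Id2, and both reach 1 with Holm's adjustment. Id1 lay the other way, with 20.1 CPM in induced cells and 16.8 CPM in controls from the authors' deposited table (log2FC 0.26, unadjusted p = 0.0818), and Id4 had a log2FC of -0.04. The 4 Id values had no common sign.

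**Figure D3:**
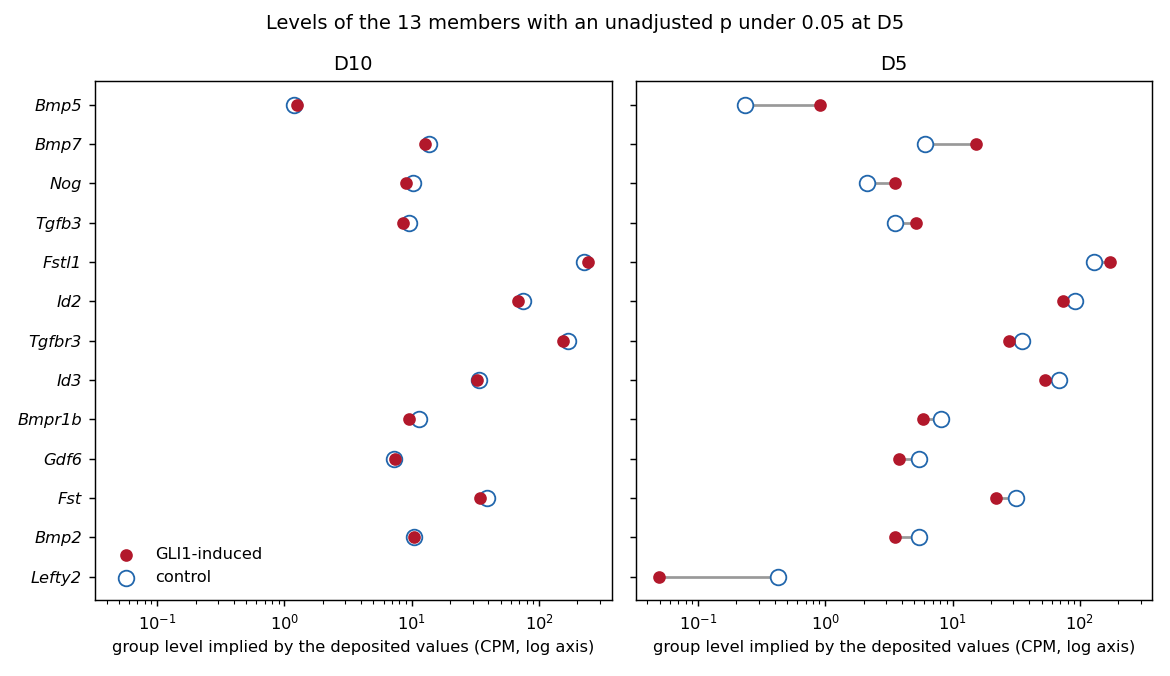
Group levels in CPM (log axis) implied by the authors' deposited tables are plotted for the 13 members with an unadjusted p under 0.05 at D5, with GLI1-induced cells as filled points and controls as open circles, at D10 (left) and D5 (right). Bmp7 stands at 15.3 CPM in induced cells and 6.08 CPM in controls at D5, and at D10 the pairs of points lie close together.

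How small a change could have been missed can be read from the intervals. At D5 the 95% interval of the log2FC lay within a 2-fold change in either direction for 26 of 35 members and within a 1.5-fold change for 15. The 9 outside the 2-fold range were Bmp2, Bmp5, Bmp7, Cer1, Gdf6, Lefty1, Lefty2, Nodal and Nog. At D10 all 32 intervals lay within 2-fold and 27 within 1.5-fold. The 5 outside the 1.5-fold range at D10 were Bmp5, Chrd, Gdf6, Inhbb and Smad6.

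Other genes of the pathway, in lists of 73 outside the 40, gave 51 measured at D5, of which 3 rose, 5 fell and 43 did not pass. Those called made up 15.7%, against 4.44% of all genes in the authors' deposited table, 2.34% higher and 2.10% lower. These lists were chosen with earlier results of these data known, so the share may reflect that choice and is a description only. Among receptor partners, Cfc1, an EGF-CFC co-receptor of Nodal, rose to 1.34 CPM in induced cells, against 0.463 CPM in controls, from the authors' deposited table (log2FC 1.53, adjusted p = 0.00192). Tdgf1, the other EGF-CFC co-receptor, had 0.416 CPM in induced cells and 1.37 CPM in controls from the authors' deposited table (log2FC -1.72, adjusted p = 0.0616). The related co-receptor genes had values of opposite sign. Cfc1 passed, but not with Holm's adjustment, and its average log2 CPM is under 1. Smad3, a signal transducer of the Nodal, activin and TGF-beta branch, rose to 160 CPM in induced cells, against 116 CPM in controls, from the authors' deposited table (log2FC 0.47, adjusted p = 0.000171). Smad1, Smad2, Smad4 and Smad5 had log2FC values of -0.05, -0.10, 0.01 and 0.01 in the authors' deposited table. Pmepa1, a TGF-beta-induced gene whose product dampens the pathway, fell, with 5.38 CPM in induced cells and 9.31 CPM in controls from the authors' deposited table (log2FC -0.79, adjusted p = 0.0103), and did not pass with Holm's adjustment.

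Of 15 other secreted modulators measured, 1 rose and 1 fell. Crim1, a membrane protein with cysteine-rich repeats that binds BMPs, fell, with 35.7 CPM in induced cells and 53.3 CPM in controls from the authors' deposited table (log2FC -0.58, adjusted p = 0.000144). Its exons overlap those of Fez2 on the opposite strand, whose log2FC was -0.29 in the authors' deposited table. Twsg1, a secreted BMP-binding protein that acts with Chordin, rose to 167 CPM in induced cells, against 123 CPM in controls, from the authors' deposited table (log2FC 0.45, adjusted p = 0.000135). Of the remaining ligands none passed among 5 measured. Gdf10 and Gdf3, the ligands with the smallest p, had log2FC values of -0.97 (adjusted p = 0.186) and -0.51 (adjusted p = 1) in the authors' deposited table.

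Outside the Id family, of 9 target genes measured, 3 fell and none rose, or 33.3% called, where the authors' deposited table had 2.10% of all genes lower and 2.34% higher. The targets had a median log2FC of -0.63 in the authors' deposited table, where the median of all genes was 0.0015. Of the 9, 7 had a log2FC below 0 and 2 above. Those above were Tgfbi (0.45, unadjusted p = 0.04, adjusted p = 0.414) and Atoh8 (0.05) in the authors' deposited table. This list too was chosen with earlier results of these data known, so its share and median are descriptions only. Ccn2 and Ccn1, matrix-associated proteins that TGF-beta and other signals induce, fell. Ccn2 had 89.9 CPM in induced cells and 139 CPM in controls from the authors' deposited table (log2FC -0.63, adjusted p = 1.48e-05), and Ccn1 had 52.0 CPM in induced cells and 79.9 CPM in controls (log2FC -0.62, adjusted p = 0.0165). Msx2, a homeobox target of BMPs, had 2.95 CPM in induced cells and 5.00 CPM in controls from the authors' deposited table (log2FC -0.76, adjusted p = 0.0346). Of these 3 targets, Ccn2 alone passed with Holm's adjustment, and Msx2 was also lost with z rescaled. Beside these falls, 2 of 4 surface ectoderm markers (Epcam and Cdh1) fell and none rose. The 4 summed to 54.1 CPM in induced cells and 76.4 CPM in controls from the authors' deposited table. Most of this was Cdh1, with 43.3 CPM in induced cells and 60.4 CPM in controls. Tfap2a and Trp63 did not pass (log2FC -0.73 and -0.26), and Krt5, Krt14 and Krt15 were not analysed here at D5. The part in the falls of surface ectoderm cells, or of those whose markers are given beside Bmp7 and Lefty2, was not tested.

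**Figure D4:**
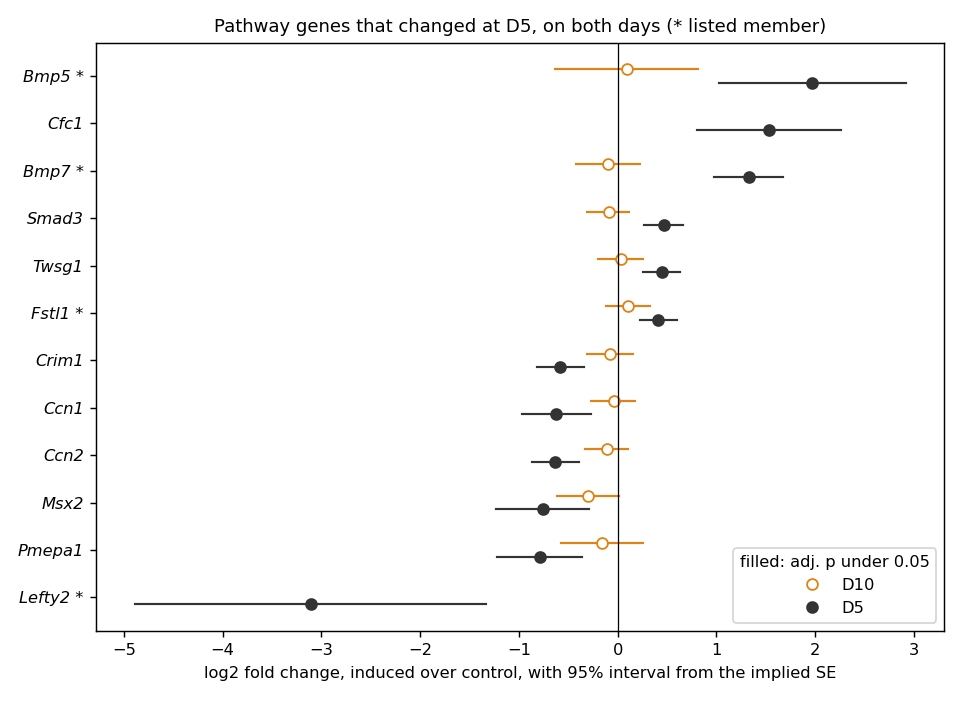
The log2 fold change of GLI1-induced over control cells, with its 95% interval from the implied SE, is plotted for the 12 pathway genes that passed at D5, with D10 in orange above D5 in black where the gene has a D10 row, from the authors' deposited tables. Asterisks mark members of the 40, filled points have an adjusted p under 0.05, and the D10 points lie near 0.

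At D10, 5 days after washout, none of the 32 measured members passed the authors' test, for which the sources used here name no tool, and none reached an unadjusted p under 0.05. Of 15744 genes, 0.0826% were called in the authors' deposited table, and 1.53% had an unadjusted p under 0.05 (0.883% higher and 0.648% lower). The 32 log2FC values ran from -0.24 to 0.25, with 17 above 0, 15 below and a median of 0.02 in the authors' deposited table. Bmp7 had 12.7 CPM in induced cells and 13.6 CPM in controls, from the authors' deposited table (log2FC -0.10, 95% interval -0.42 to 0.23). Bmp5 had 1.26 CPM in induced cells and 1.18 CPM in controls from the authors' deposited table (log2FC 0.09), and Fstl1 had 243 CPM in induced cells and 227 CPM in controls (log2FC 0.10). The member with the smallest p was Id4, at 44.8 CPM in induced cells and 37.7 CPM in controls from the authors' deposited table (unadjusted p = 0.0691). At the same time 4 of 5 floor plate markers were still higher in induced cells, with sums of 402 CPM in induced cells and 229 CPM in controls from the authors' deposited table. Of the 52 other pathway genes measured at D10 none passed, and 3 had an unadjusted p under 0.05.

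The effect of induction was compared between D10 and D5 for the 31 members on both days. It differed for 1 of them, Bmp7, where 1.24% of 14792 genes differed (0.859% with D10 minus D5 below 0 and 0.379% above, and 1.21% closer to 0 at D10). Its log2FC was -0.10 at D10 and 1.33 at D5 in the authors' deposited tables, a difference of -1.43 (95% interval -1.91 to -0.95, adjusted p = 1.28e-06). With a t quantile in place of the normal one it no longer passed, with an adjusted p of 0.116, and over the other alternatives the smallest was 1.03e-08. For Bmp5 the log2FC values were 0.09 at D10 and 1.97 at D5 in the authors' deposited tables, a difference of -1.88 that did not pass (adjusted p = 0.12). Fstl1 had 0.10 at D10 and 0.41 at D5 as log2FC values in the authors' deposited tables, and the difference of -0.31 did not pass (adjusted p = 0.877), though it did with z rescaled (adjusted p = 0.0037, against a highest value of 0.957 over its alternatives). Of the other pathway genes on both days, 1 of 47 differed. Smad3 had -0.09 at D10 and 0.47 at D5 in the authors' deposited tables, a difference of -0.56 (adjusted p = 0.017). No alternative is given for Smad3 alone, and with a t quantile 19 genes differed in place of 183.

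Average levels of the members over induced and control cells were mostly higher at D10. The tables of the days were normalized separately, so these levels are a description with no test. The average log2 CPM was higher at D10 for 24 of 31 members, or 77.4%, against 50.4% of all genes on both days, and was more than 1 log2 unit higher for 11, or 35.5%, against 12.2% of all genes. No member was more than 1 log2 unit lower at D10, while 5.69% of all genes were. Bmp4 had the largest gap, with an average log2 CPM of 3.36 at D10 and 0.29 at D5 in the authors' deposited tables. Tgfbr2, the type II TGF-beta receptor gene, had 5.65 at D10 and 2.96 at D5 as average log2 CPM in the authors' deposited tables, and its ligand gene Tgfb1 had 2.03 at D10 and -0.36 at D5. Tgfbr3 had 7.33 at D10 and 4.98 at D5 as average log2 CPM in the authors' deposited tables. Noggin's gene Nog, Tgfb2, Smad7, Bambi, Bmp2, Bmp5 and Tgfb3 complete the 11. Id3 was lower at D10, with an average log2 CPM of 5.04 at D10 and 5.93 at D5 in the authors' deposited tables. Nodal, Lefty1, Lefty2 and Cer1 were not analysed here at D10. Marker sums of neuron, endoderm, mesoderm, surface ectoderm and roof plate cells were also higher at D10 than at D5, in both induced and control cells. Those of neural progenitor, floor plate and pluripotent cells were lower at D10 in both. By the authors' deposited tables, only Ntn1 of the floor plate list was lower (179 CPM at D10, 321 CPM at D5, induced cells). Shh, Foxa2, Spon1 and Slit1 were higher at D10 in both groups. The lower pluripotent sum was mostly Dnmt3b (27.2 CPM at D10, 89.5 CPM at D5, induced cells). Dppa5a, Pou5f1 and Nanog were also lower at D10 in both groups, and Klf4 and Esrrb were higher. The neural progenitor sums at D10 were 606 CPM in induced cells and 513 CPM in controls, from the authors' deposited table. Of surface ectoderm markers 7 were measured at D10 and 4 at D5, and of roof plate markers 6 at D10 and 5 at D5. Among mesoderm markers, Foxf1 was not analysed here at D10, nor Tbx6 at D5. At D10 the surface ectoderm markers summed to 330 CPM in induced cells and 350 CPM in controls, from the authors' deposited table. Most of this was Cdh1, with 263 CPM in controls, and Epcam came next (64.9 CPM in controls). In induced cells Krt5, Krt14, Krt15, Trp63 and Tfap2a had 0.839, 2.11, 6.7, 2.69 and 7.7 CPM. The mesoderm markers summed to 239 CPM in induced cells and 254 CPM in controls, from the authors' deposited table. Nearly all of this was Pdgfra, with 234 CPM in induced cells, where T, Tbx6 and Kdr had 2.52, 0.853 and 1.37 CPM. The part of the cells of these marker lists in the levels was not tested.

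**Figure D5:**
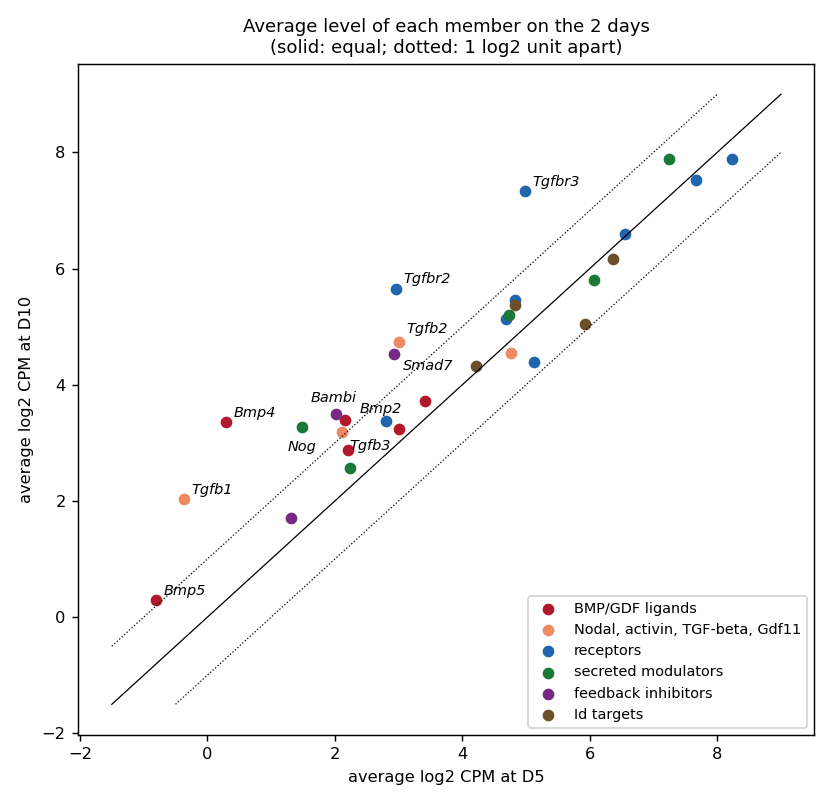
The average log2 CPM at D10 (y axis) is plotted against that at D5 (x axis) for the 31 members on both days, from the authors' deposited tables, with a solid line for equal levels and dotted lines 1 log2 unit away. The 11 named genes lie above the upper dotted line, among them Bmp4, Tgfb1, Tgfbr2 and Tgfbr3, and none lies below the lower one.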

How the data were processed

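RNA of 14 libraries in 4 groups was read from a single end (50 bases), per the labels' protocols. No aligner, counter, statistical test, genome build or use of strand in counting is given in the sources used here. Per the file headers, the authors deposited for each Entrez gene and day an FDR, a p-value, an average log CPM and a log fold change, with no value per library. The deposited average log2 CPM sums, as 2 to its power, to 1001543 (D5) and 1001340 (D10). The base of the log fold change was taken as 2, which was not tested. The deposited FDR is, within 3.41e-05, the authors' p-values adjusted by Benjamini and Hochberg's method, and is called adjusted p here.

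Symbols came from the deposited tables and a RefSeq gene table (94.6% of identifiers matched on each day). Group CPM were computed from the authors' fold change and average level, assuming that the average is the log2 of the mean CPM over equal groups. The implied SE is the size of the log2FC over the size of z from the two-sided p, and a 95% interval is 1.96 SE either way. It inherits every assumption of the authors' test. The difference between days was divided by the root of the summed squared SEs, with a normal reference and Benjamini-Hochberg adjustment over 14792 genes. Alternatives were adjusted p under 0.01 or 0.1, a 2-fold minimum, Holm's adjustment, an average log2 CPM minimum of 1, repeated rows counted once, a t quantile, SEs of the nearest 200 genes, and z rescaled in bins of about 500 genes. The comparison of days was tested on log2FC values simulated from normal distributions. That simulation could not check whether the normal reference suits the authors' p-values. Python 3.11.15, numpy 2.4.6, pandas 2.3.3 and scipy 1.17.1 were used.

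The members and lists were chosen with earlier results of these data known. Named in full were members and other pathway genes that passed on either day, members with an unadjusted p under 0.05 or a difference between days, and the 2 other genes per role with the smallest p at D5. The remaining members are given by values or ranges. Some genes of the lists are not reported here and are left out of the list counts and sums. Shared windows came from GENCODE transcripts, whose build may differ from the authors'.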

Additional observations from a re-analysis of the deposited data

Results flagged for a closer look

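The effect of induction differed between the days for 2 pathway genes, by the test of the difference itself, and a difference is given as D10 minus D5 on the log2 scale. For Bmp7, the BMP ligand gene, it was -1.43. For Smad3, the signal transducer gene, it was -0.56. Each was nearer 0 at D10, as were 179 of the 183 genes of all 14792 that differed between the days.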

How the results depend on the processing

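No paired analysis was possible because no values per library were used, and leaving out each replicate could not be run for the same reason. No result reversed under any alternative run. At D5, where 671 genes and 4 members were called, 433 genes passed an adjusted p under 0.01, 250 passed with a 2-fold minimum and 242 with Holm's adjustment. Of members, 2 passed when genes under an average log2 CPM of 1 were left out (Bmp7 and Fstl1) and 1 with Holm's adjustment (Bmp7). Of the other pathway genes, 8 passed at D5, 5 under 0.01, 1 with a 2-fold minimum and 4 with Holm's adjustment. At D10, where 13 genes were called, 6 had a 2-fold change, and 119 passed with z rescaled to a standard normal in bins of about 500 genes of like level. The rescaling also called 1 other pathway gene at D10 (Msx3), and no member. For the difference between days, 183 genes and 1 member passed, against 19 and 0 with a t quantile and 361 and 2 with rescaled z (Bmp7 and Fstl1). The remaining 41 values, counts and the members' medians, kept their sign and moved by less than 1.5 times. At D5, 7 of 35 members had an average log2 CPM under 1. Of the other pathway genes at D5, those that passed with Holm's adjustment were Ccn2, Crim1, Smad3 and Twsg1.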

Other observations

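At D10, 3 pathway genes outside the 40 had an unadjusted p under 0.05 in the authors' deposited table, all with a log2FC below 0, and none passed after adjustment. Msx3, a homeobox gene of the dorsal neural tube, had a log2FC of -0.72 in the authors' deposited table (unadjusted p = 0.00223, adjusted p = 0.892). Chrdl1, which encodes a Chordin-like BMP antagonist, had -0.94 (unadjusted p = 0.0162), and the ligand gene Bmp8a had -0.71 (unadjusted p = 0.0427), as log2FC values in the authors' deposited table. All 6 roof plate markers measured at D10 had a log2FC below 0, with a median of -0.42 in the authors' deposited table, and none passed. They were Lmx1a, Lmx1b, Wnt1, Wnt3a, Rspo1 and Msx1, the last of which is also among the listed targets. Their summed level from the authors' deposited table was 25.8 CPM in induced cells and 35.9 CPM in controls. At D5, 3 of the 5 roof plate markers measured were below 0.

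Gdf1, a Nodal-related ligand gene, has every 50-base window in common with Cers1, and both genes had the same values on each day, so they cannot be told apart here.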
